A study of Arabidopsis thaliana with 9 samples.

Results

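The comparison described here set leaves of Arabidopsis thaliana treated with BrvC for 6 h against leaves given the solvent alone, across all genes that one array value could be assigned to. BrvC is a brevicompanine, one of a group of alkaloids made by fungi. Both groups were wild-type plants of the ecotype Col-0 aged 30 days, raised in soil for 4 weeks in days of 16 h at 21 °C and nights of 8 h at 19 °C. Leaves matched for size and chlorophyll were cut off and put in MS medium, with 50 µM BrvC in the treated group and 0.05% DMSO in the control group. Each group had 3 biological replicates, each replicate pooled 10 to 15 leaves, and each gave 1 Affymetrix array. The treated leaves stayed in darkness for 6 h. Another 3 arrays came from leaves kept with BrvC for 48 h, and the labels give no incubation time for the control leaves, so that an effect of BrvC and an effect of the time in the dark cannot be told apart. The value table held 38408 entries. Of these, 16722 were paired with 1 gene, 759 with several genes, and 20927 were not listed in the table of gene names. One entry was kept for each gene, the one with the highest mean over the 9 arrays, which gave 16550 genes. Of these genes 1805 carried a symbol in the reference gene table and 14745 were known by their AGI locus alone.

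A detached leaf in the dark cannot fix carbon, and in Arabidopsis such leaves are known to draw on starch, then on protein, amino acids and lipids, partly through autophagy, the delivery of cell contents to the vacuole. Leaf cells also hold plastids whose proteins come from nuclear and plastid genes, so that plastid growth needs a nuclear-encoded set of polymerase, splicing, editing, import and assembly factors. Ribosome production in the nucleolus, which needs RNA polymerase I, is a usual companion of growth.

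All values below are log2 signals, in which 1 unit is a 2-fold difference, and differences are given as BrvC 6 h minus control. A gene was called when limma's moderated test, fitted to all 9 arrays with Benjamini-Hochberg adjustment over all 16550 genes, gave an adjusted p under 0.05. An array measures RNA of a mixture of cells, in which fewer cells of a type and less RNA per cell cannot be told apart. The marker lists for cell types were mostly not measured. Of 17 mesophyll markers 1 was present, LHCB4.1, with 8.49, 8.84 and 9.36 on the control arrays and 7.7, 7.57 and 7.61 at 6 h. Its difference was -1.27 (adjusted p = 0.000651). The guard cell factor FMA, 1 of 5 guard cell markers, had 5.47, 5.7 and 5.92 on the control arrays and 6.84, 6.82 and 7.04 at 6 h, a difference of 1.2 (adjusted p = 0.00014). The part of these cell types in the other differences was not tested. The root markers PYK10 and EXPA7, the trichome marker TRY and the pollen markers VGD1 and VGDH1 stayed between 1.64 and 3.7 on all 6 arrays, below the median of 3.85 over the gene means, and were not called. No marker of epidermis, phloem, xylem or seed was among the genes tested.

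Of the 16550 genes, 4531 differed between the groups (27.4%), 2351 higher (14.2%) and 2180 lower (13.2%) at 6 h. Differences of at least 2-fold were found for 1245 higher and 1007 lower genes (13.6% of all genes). The 3 treated arrays lay wholly above the controls for 3099 genes (18.7%) and wholly below for 3572 (21.6%), together 40.3%. Family members given below with array values were mostly picked as called genes with the largest change, which favoured groups that lay apart. The median difference over all genes was -0.1. Higher calls made up 51.9% of all calls over the genes tested, 48.6% after each array was centred on its median, and 64.0% over the whole table of 38408 entries. Of the 20927 entries without a listed gene 29.7% were called. Correlations between arrays were 0.978 to 0.984 within control, 0.989 to 0.993 within the 6 h group and 0.936 to 0.950 between them.

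Calls depended on the signal level. In the lowest quartile of genes by mean signal 0.87% were higher and 2.37% lower, and in the next quartile 9.57% and 9.84%. In the quartile above the median 27.2% were higher and 16.9% lower. In the top quartile the order turned, with 19.2% higher and 23.6% lower. Genes known by locus alone were called in 26.9% of cases, with 2044 higher and 1919 lower, and genes with a symbol in 31.5%, with 307 higher and 261 lower. Differences of at least 8-fold that passed the test were found for 46 higher and 71 lower genes, of which 38 and 61 had a locus name alone.

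**Figure D1:**
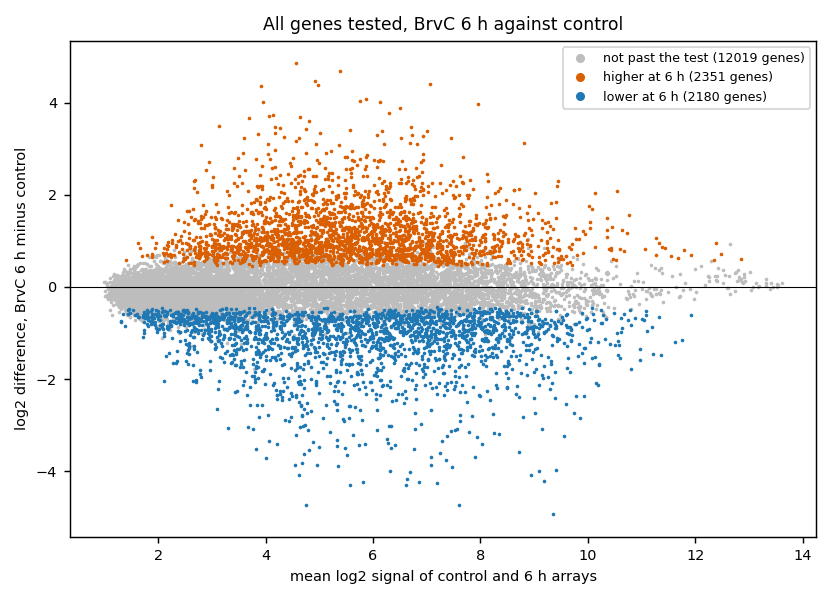
Difference between BrvC 6 h and control (vertical axis, log2) against the mean log2 signal of the 6 arrays (horizontal axis) for 16550 genes, 1 point per gene. The 2351 genes called higher are orange, the 2180 called lower are blue and the 12019 not past the test are grey. Genes at the lowest signals were rarely called.

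The largest rises were mostly those of genes without a symbol, which made up 10 of the 15. AT4G20970 had the largest rise. Its control arrays read 2.26, 2.21 and 1.95 and its 6 h arrays 6.77, 7.06 and 7.14, a difference of 4.85 (SE 0.21, adjusted p = 1.51e-08). The groups lay far apart, and at 48 h the arrays were back at 2.16, 2.21 and 2.82. PRN, a pirin of the cupin fold, read 3.03, 2.83 and 3.25 in control and 7.85, 7.46 and 7.88 at 6 h (difference 4.69). AT1G66940 read 2.69, 2.62 and 2.74 and then 7.24, 7.09 and 7.1. These 3 genes were all low on every control array and above the upper quartile of gene means, 6.22, on every 6 h array. AT3G29970 rose from 2.54, 2.82 and 2.99 to 7.38, 7.31 and 6.81, and its 48 h arrays were higher still, at 9.55, 9.1 and 9.94. The others without a symbol were AT3G50340 (4.39), AT4G30650 (4.36), AT4G30020 (4.07), AT1G10585 (4.03), AT1G23110 (4.01), AT2G36970 (3.89) and AT2G20835 (3.7).

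Among the 15 were also 4 further genes with a symbol. NRT2.5, a high-affinity nitrate transporter known from nitrogen-starved plants, read 4.31, 4.06 and 4.01 in control and 8.18, 8.27 and 7.97 at 6 h. KIN2, a small hydrophilic protein induced by cold and abscisic acid, went from 5.35, 6.27 and 6.28 to 9.86, 9.52 and 10.41. GH3.3, which couples auxin to amino acids, went from 3.6, 4.96 and 4.69 to 8.12, 8.17 and 8.3, and the factor TCP1 from 2.77, 2.12 and 1.92 to 5.96, 6.2 and 5.85. In each of these genes the lowest treated array was at least 3 units above the highest control. At 48 h the differences from the same controls were 1.59 for NRT2.5, -0.06 for KIN2, 4.62 for GH3.3 and 1.64 for TCP1.

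The largest falls held 13 genes known by locus alone and 2 with a symbol. OSM34, an osmotin-like protein of the pathogenesis-related class, read 11.58, 12.11 and 11.76 in control and 6.84, 6.78 and 7.04 at 6 h, a difference of -4.93 (SE 0.18, adjusted p = 8.92e-09). It stood at 12.44, 12.37 and 12.59 at 48 h, above the controls. BGLU46, a glucosidase that acts on the glucosides of lignin precursors, went from 8.76, 9.54 and 8.64 to 4.9, 4.51 and 4.82. AT1G73610 went from 7.13, 7.53 and 6.71 to 2.16, 2.46 and 2.53, and AT3G51540 from 9.58, 10.00 and 10.31 to 4.96, 5.35 and 5.37. In none of these genes did a 6 h array come within 3 units of a control array. AT3G19390 had uneven controls, 8.64, 8.3 and 6.87, and close 6 h arrays, 3.77, 3.76 and 3.55. The rest were AT5G50940 (-4.3), AT3G32980 (-4.29), AT1G62760 (-4.25), AT4G33420 (-4.2), AT1G68620 (-4.16), AT3G14200 (-4.07), AT1G61750 (-4.07), AT2G32150 (-4.02), AT2G41250 (-3.99) and AT1G73750 (-3.99). The adjusted p of the 30 largest changes was 1.84e-06 or lower in limma, and each passed the test in all 6 fits that left out 1 array of control or 6 h. Groups that lay apart were required when these genes were picked. The 48 h group shares its controls with the 6 h group, and against them 8 of the 15 rises and 4 of the 15 falls were within 1 log2 unit at 48 h.

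**Figure D2:**
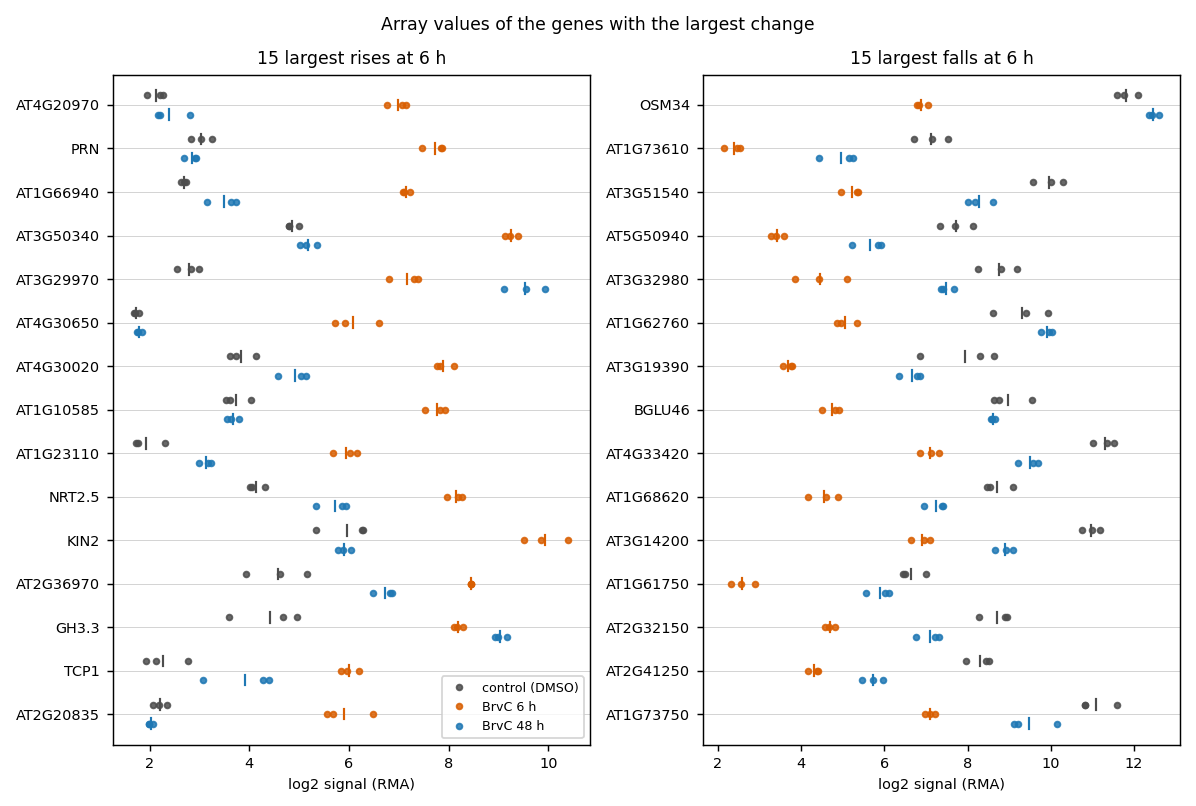
Log2 signal on every array (points) with group means (ticks) for the 15 genes with the largest rise (left) and the 15 with the largest fall (right) at 6 h, in control, BrvC 6 h and BrvC 48 h, with 3 arrays per group. The 6 h arrays stand apart from the controls in all 30 genes, and for 12 of them the 48 h mean lies within 1 unit of the control mean.

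Signals of different genes cannot be compared as RNA amounts, but 23 genes crossed the middle part of the signal range. In 9 genes every control array was below 3.85 and every 6 h array above 6.22. Besides AT4G20970, PRN, AT1G66940 and AT3G29970 these were AT2G17280 (difference 3.69), AT1G04770 (2.93, 3.13 and 2.94 and 6.82, 6.5 and 6.49), the glutathione transferase GSTU20 (difference 3.43), AT5G62720 (3.34) and AT5G50915 (3.09). In 14 genes the arrays went the other way. Of these, 12 had a locus name alone, among them AT1G52342 (-3.88), AT3G15440 (-3.82), AT2G03850 (-3.54) and AT4G13540 (-3.15). The remaining pair were GH3.17, a relative of GH3.3 that also conjugates auxin, which went from 6.55, 6.77 and 7.31 to 2.79, 3.29 and 2.98, and the purine permease PUP18, from 6.23, 6.29 and 6.51 to 3.24, 3.23 and 3.23. AT1G19530 was the one of these whose 48 h arrays were above the controls, with 6.56, 6.92 and 6.22 in control, 3.05, 3.59 and 2.97 at 6 h and 8.99, 9.06 and 8.38 at 48 h. These 23 genes were picked by their values in this comparison, and the counts are a description.

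Genes of ribosome production and of nuclear RNA polymerases rose in many cases and seldom fell. Of 17 measured subunits of RNA polymerases I to V, 8 rose (47.1%) and 1 fell (5.88%), with a median difference of 0.58 against -0.1 over all genes. Their median control signal was 5.44. Of all genes 14.2% rose, and 27.2% of those in the quartile above the median signal. NRPA1, the largest subunit of RNA polymerase I, read 6.23, 5.67 and 5.89 in control and 7.84, 8.1 and 7.86 at 6 h (difference 2.0, SE 0.18, adjusted p = 3.01e-06). NRPA2, its partner in the catalytic centre, read 7.32, 6.67 and 7.43 and 8.65, 8.87 and 8.56 (difference 1.55). The treated arrays of both lay above every control array. For RNA polymerase III, which makes transfer RNAs and 5S ribosomal RNA, NRPC2 rose by 1.3 and NRPC1 by 1.07. Of the smaller subunits NRPB10 (1.06) and NRPB12 (0.92) rose. NRPB3 (0.59) and NRPB7 (0.58) were called too, but each call was lost in 5 of the 6 fits without 1 array, with NRPB3 at 0.41 to 0.69 and NRPB7 at 0.41 to 0.74. NRPB9A was the one lower call (-0.84), which was lost without 6 h replicate 3 (-0.72, adjusted p = 0.0554). The other 8 ranged from -0.38 (NRPE3B) to 0.69 (NRPD2B) and did not pass the test.

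Of 10 genes of ribosomal RNA processing 6 rose and 1 fell, with a median of 1.22. RBL (AT3G55510), called REBELOTE in full, had 5.04, 5.02 and 5.54 in control and 7.62, 7.63 and 8.03 at 6 h, a difference of 2.56 (adjusted p = 1.4e-06). YAO, a nucleolar WD-repeat protein needed for processing of ribosomal RNA, had 3.82, 3.5 and 4.04 and 5.31, 6.04 and 5.9. PCN, a WD-repeat protein placed in this group, had 7.68, 7.14 and 7.38 and 8.83, 8.95 and 8.54. In all 3 the lowest treated array exceeded the highest control by over 0.8 units. RRP41L (1.35), a relative of an exosome subunit, IMP4 (1.26) and the nucleolar helicase PRH75 (1.18) also rose. The ribosomal RNA dimethylases split, with -0.95 for DIM1B, which fell, and 0.3 for DIM1A, which did not pass the test. In each fit that left out 1 array 6 genes of the group rose and 1 fell. Among 4 genes of transfer RNA processing TRZ3 (1.27) and TRM82 (1.16) rose. Messenger RNA splicing factors and Sm-like proteins gave 2 rises and 1 fall in 19 genes with a median of -0.01.

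Factors that process organelle RNA rose in 12 of 17 cases, with no falls and a median of 0.78. PPR336 and PPR596, pentatricopeptide repeat proteins of mitochondria, rose from 2.67, 3.42 and 2.65 to 4.24, 4.26 and 5.07 and from 3.71, 3.82 and 2.88 to 5.15, 5.05 and 4.85. RH39, a plastid helicase needed for maturation of the large ribosomal RNA, rose from 7.08, 6.91 and 7.4 to 8.28, 8.21 and 8.07 (difference 1.06, adjusted p = 0.000912). Treated and control arrays did not overlap in these 3 genes, which were picked for the largest change in the group. The intron splicing factors CAF1 (1.04), CFM3B (0.82) and CFM3A (0.76) rose too. So did the RNA editing factors OTP86 (0.94), OTP80 (0.83), CRR21 (0.8), OTP87 (0.78) and LPA66 (0.53), and OTP70 (0.56). WTF1, CRR22, OTP84, OTP43 and OTP85 had values from -0.3 to 0.49 and did not pass the test. Between 9 and 12 members passed when single arrays were left out, where OTP80 moved to 0.68, CRR21 to 0.68, OTP70 to 0.45 and LPA66 to 0.46 at the lowest and lost their calls in 1 to 5 fits.

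Of 63 plastid-encoded genes 17 rose (27.0%) and none fell, with a median of 0.25. Over all genes 14.2% rose, and in the top quartile of signal 19.2% did. The leading members encode the plastid's own RNA polymerase. Its beta-double-prime subunit gene rpoC2 read 9.27, 9.01 and 9.13 in control and 10.95, 10.98 and 10.77 at 6 h, and rpoB read 10.19, 9.62 and 9.59 and 11.22, 11.22 and 10.86. All 4 subunit genes were called, with 1.23 for rpoC1 and 0.62 for rpoA, whose call was lost in 4 of the fits without 1 array (0.52 at the lowest). At 48 h the values against control were -0.1, -0.45, -0.31 and -0.21 for rpoC2, rpoB, rpoC1 and rpoA. The photosystem reaction centre genes psbA (0.04), psaA (0.08) and psaB (0.06) and the Rubisco gene rbcL (0.18) did not pass the test. The photosystem II gene psbZ rose by 0.95, a call kept in all fits without 1 array (0.72 at the lowest). The median control signal of the 63 genes was 12.34 on a table whose highest value was 13.87. The count of plastid-encoded calls fell from 17 to 10 without 6 h replicate 1 and to 11 without 6 h replicate 2. None of the 17 measured mitochondria-encoded genes was called (0 higher and 0 lower in limma), and their values ran from -0.4 to 0.42. With renewed quantile normalization 1 of them was called.

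Nuclear genes of plastid building rose in most small groups measured. Of 6 genes of plastid division, plastid DNA topology and PALE CRESS, 5 rose with a median of 1.21. FTSZ2-2, a tubulin-like protein of the plastid division ring, went from 3.81, 3.49 and 3.09 to 5.48, 5.84 and 5.55 (difference 2.16, adjusted p = 5.56e-06). Its relative FTSZ2-1 went from 4.49, 4.41 and 3.9 to 5.67, 5.64 and 5.72, and GYRB2, a gyrase subunit of organelles, from 4.5, 4.59 and 4.69 to 5.99, 5.86 and 5.63. None of these arrays overlapped between the groups. PAC (1.18) and GYRB1 (0.87) rose, and the thylakoid protein FZL had 0.11 (not past the test).

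All 3 measured nuclear subunits of the NDH complex, which carries electrons around photosystem I, rose. NdhL read 4.5, 4.26 and 4.27 in control and 6.73, 6.63 and 7.13 at 6 h (difference 2.48, adjusted p = 5.09e-07), NdhN differed by 1.52 and NdhU by 1.04. At 48 h the same genes stood at -0.82, -0.45 and -0.96 against the shared controls. Of 10 assembly factors of thylakoid complexes 4 rose and 1 fell. CRR42, which helps assemble NDH, went from 4.42, 4.45 and 4.82 to 7.38, 6.95 and 7.22. HCF101, an iron-sulfur scaffold for photosystem I, went from 4.65, 3.84 and 4.14 to 6.65, 6.84 and 6.82. PAM68 (1.29) also rose, and the cytochrome b6 factor CCB3 (0.77) was called but lost its call without control replicate 1, 6 h replicate 1 or 6 h replicate 2 (0.59 at the lowest). PSB27, a lumen protein of photosystem II assembly and repair, went the other way, from 7.93, 8.32 and 9.0 to 6.43, 5.8 and 6.58. Of the 3 proteins that bend thylakoid margins, named CURT1 in the reference synonyms, AT4G01150 (1.37) and AT4G38100 (1.03) rose and AT1G52220 had 0.57 (not past the test). Among 8 plastid chaperonin, protease and import genes Cpn60beta4 (1.35) and HSP93-III (0.86) rose. Cpn60beta3 was called at 0.77, a call lost without control replicate 2 or 6 h replicate 2 (0.57 at the lowest). NCLPP7 was the one lower call (-0.53), which was lost in 5 fits without 1 array (-0.47 nearest to 0).

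Nuclear genes for subunits of the photosystems themselves moved the other way. Of 8 nuclear genes for photosystem and antenna subunits 5 fell and none rose, with a median of -1.27. PSAN, a lumen subunit of photosystem I, read 8.64, 8.85 and 8.2 in control and 6.41, 6.39 and 6.72 at 6 h (difference -2.06, adjusted p = 9.35e-06). LHCB4.2, an antenna protein next to the photosystem II core, read 8.15, 8.22 and 8.79 and 6.79, 6.75 and 6.96, and PSBY read 7.34, 7.38 and 8.19 and 6.32, 6.14 and 6.55. In each the highest treated array was below the lowest control. LHB1B2 (-1.28) and LHCB4.1 were the other calls, and LHCB4.3 (-0.24), PSAE-1 (-0.28) and PSBW (0.09) did not pass the test. In each fit without 1 array 5 of the group fell.

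Enzymes that make chlorophyll and haem rose in 6 of 11 cases, with no falls and a median of 0.61. LIL3:1, a membrane protein that holds an enzyme of chlorophyll synthesis, went from 2.92, 3.07 and 2.78 to 4.7, 5.01 and 4.93. PORB, which reduces protochlorophyllide in the light, went from 5.2, 5.03 and 5.56 to 6.65, 6.69 and 6.6. Neither overlapped with its controls. GSA1 (0.84), LIL3:2 (0.82) and HEME2 (0.73) rose, HEME1 (0.61) was called in the fit to all arrays and lost in 4 fits without 1 array (0.47 at the lowest), and CHLM, hemb2, HEMA3, hemf2 and HEMA2 lay between -0.52 and 0.16 without passing the test. NOL, the chlorophyll b reductase that starts chlorophyll b breakdown and the one measured member of that list, fell from 8.1, 8.12 and 8.07 to 6.66, 6.72 and 6.63. Of 4 genes of the Calvin cycle and photorespiration, SBPASE, which regenerates the carbon acceptor, rose (1.58), the photorespiratory HPR fell (-1.01), and PRK had 0.3 (not past the test). RCA, the Rubisco activase, fell by 0.58, a call lost without single arrays (-0.48 without control replicate 2, adjusted p = 0.0915) and after renewed quantile normalization (-0.36, adjusted p = 0.191).

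Starch genes rose in 4 of 7 cases, with no falls and a median of 0.64. APL3, a large subunit of the enzyme that makes ADP-glucose, read 4.35, 4.48 and 4.33 in control and 6.8, 7.01 and 6.52 at 6 h. PWD (AT5G26570), which phosphorylates starch before breakdown, read 6.85, 6.41 and 6.11 and 8.6, 8.77 and 8.58, and DPE1, which rearranges maltotriose in the plastid, rose by 1.67. These 3 serve both the making and the breakdown of starch. PWD (AT4G24450) was called at 0.64, a call lost in 5 fits without 1 array (0.51 at the lowest), and APL4 (0.42), SBE2.2 (0.16) and AMY1 (-0.57) did not pass the test.

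**Figure D3:**
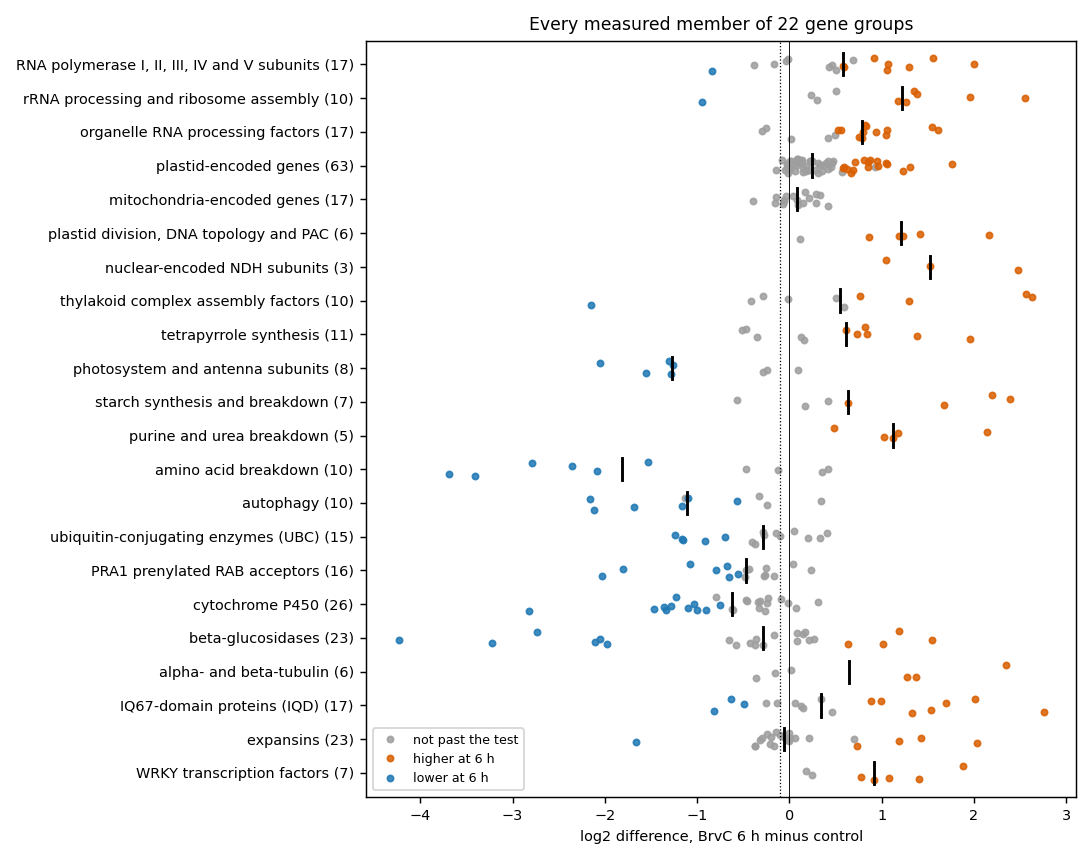
Difference between BrvC 6 h and control (log2, horizontal axis) for every measured member of 22 gene groups, 1 point per gene, with the number of members in brackets and the group median as a black bar. Orange points were called higher, blue points lower and grey points did not pass the test. The dotted line is the median over all 16550 genes, -0.1. Groups of plastid and nuclear gene expression lie to the right and amino acid breakdown, autophagy and nuclear-encoded photosystem subunits to the left.

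Genes for the use of amino acids as fuel fell. Of 10 genes 6 fell and none rose, with a median of -1.81, and 6 or 7 fell whichever array was left out. MCCB, a subunit of the carboxylase of leucine breakdown, read 10.06, 9.74 and 9.42 in control and 6.03, 6.23 and 5.9 at 6 h (difference -3.69, SE 0.21, adjusted p = 6.22e-08). ASPGB1, an asparaginase, read 6.95, 7.42 and 8.26 and 3.87, 4.11 and 4.43. MGL, which splits methionine, read 9.02, 9.45 and 8.58 and 6.01, 6.26 and 6.43. The treated arrays of these genes lay at least 2 units below the lowest control. ETFQO (-2.36), which passes electrons from such breakdown to the respiratory chain, ALDH6B2 (-2.09) of valine breakdown and the ornithine aminotransferase DELTA-OAT (-1.53) fell. D2HGDH (-0.48), the formate dehydrogenase FDH (-0.12), counted in this group, ETFALPHA (0.35) and ASPGA1 (0.42) did not pass the test. At 48 h the differences from control were -0.76 for MCCB, -1.09 for ASPGB1, -0.95 for MGL and -0.12 for ETFQO.

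Genes known to rise in starved or darkened tissue were lower as well. Of the 19 genes on that list 3 were measured. AKINBETA1, a subunit of the energy-sensing kinase SnRK1, went from 11.25, 11.18 and 11.13 to 9.03, 9.15 and 9.12 and PPDK, a dikinase of pyruvate, from 10.79, 10.58 and 10.42 to 9.31, 9.32 and 9.15. Neither group pair overlapped. SAG29 differed by -0.63, a call lost without single arrays (-0.57 without control replicate 3, adjusted p = 0.0675) and after renewed quantile normalization (-0.49). Of 5 genes of lipid and acetate use SDP1, a lipase of storage oil (-1.28), and PAHX (-1.09) fell, and ICL had 0.05 (not past the test). WRKY6 (0.17) and SAG101 (0.34) of the senescence list did not pass the test.

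Autophagy genes fell in 6 of 10 cases and none rose, with a median of -1.11. The measured genes were mostly those of ATG8, the small protein that is tied to the growing autophagosome membrane. ATG8H read 8.5, 9.06 and 8.28 in control and 6.43, 6.19 and 6.74 at 6 h, APG8A read 6.85, 7.79 and 7.13 and 5.14, 4.65 and 5.61, and ATG8B read 8.67, 9.01 and 9.0 and 7.39, 6.86 and 7.37. No treated array of these reached a control array. APG8H (-1.17) and ATG8E (-1.1) also fell, and ATG8F (-0.57) was called but not without 6 h replicate 2. ATG8C had a similar difference (-1.13) with a larger spread and did not pass the test (adjusted p = 0.0601), and ATG8G, ATG3 and ATG8D had -0.25, -0.33 and 0.34. ATG8 genes are close relatives, and whether they share probes on this array was not tested.

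Genes for the breakdown of purines rose. All 5 measured genes from AMP to urea rose, with a median of 1.12. FAC1, the AMP deaminase at the head of the path, read 7.41, 6.9 and 7.5 in control and 8.31, 8.39 and 8.47 at 6 h. ALN, which opens the ring of allantoin, read 7.58, 7.2 and 7.11 and 9.45, 9.47 and 9.37, and UGLYAH, near the end of the path, read 6.12, 5.93 and 6.69 and 7.42, 7.36 and 7.49. These arrays did not overlap. The urease URE rose by 1.03. AAH, which splits allantoate, was called at 0.48 and lost its call in 5 fits without 1 array (0.43 at the lowest), while the other 4 genes passed in each.

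**Figure D4:**
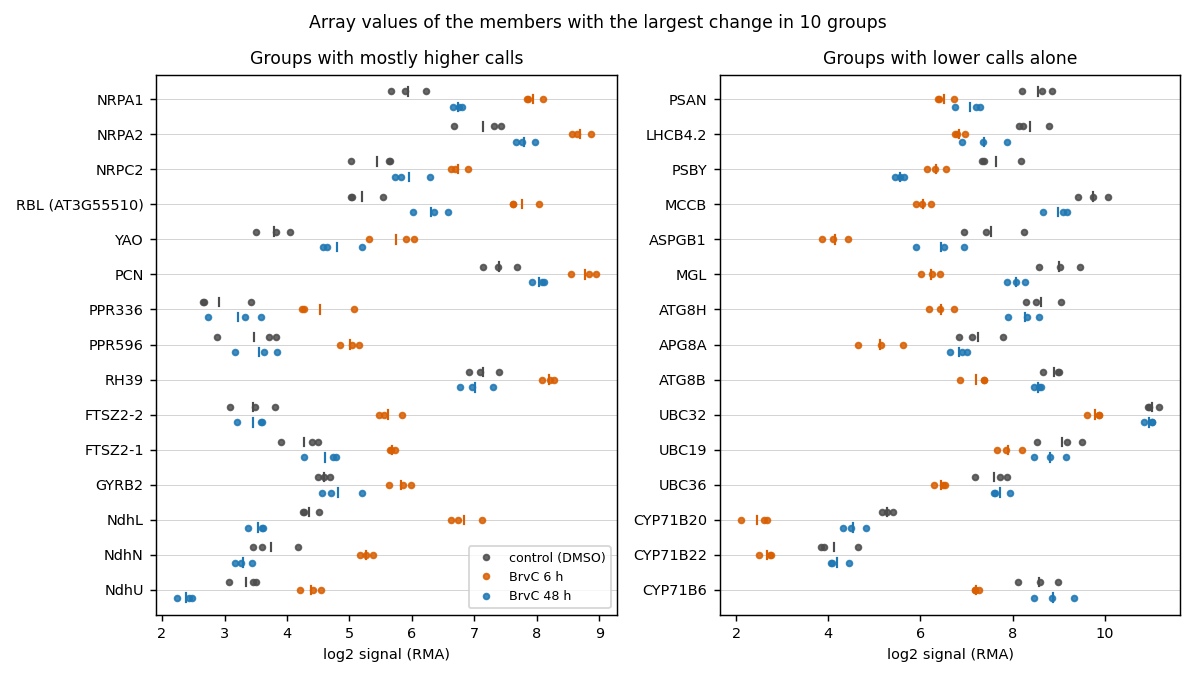
Log2 signal on every array (points) with group means (ticks) in control, BrvC 6 h and BrvC 48 h for the 3 called members with the largest change in each of 5 groups with mostly higher calls (left) and 5 groups with lower calls alone (right). For 29 of the 30 genes the 48 h mean lies nearer to the control mean than the 6 h mean does. The genes were picked by the size of their 6 h change, which favours this.

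Protein turnover genes gave a mixed picture. Of 15 ubiquitin-conjugating enzymes 5 fell and none rose, the same number in each fit without 1 array. They were UBC32 (11.19, 10.97 and 10.93 in control and 9.88, 9.87 and 9.62 at 6 h), UBC19 (-1.17), UBC36 (-1.16), UBC28 (-0.91) and UBC22 (-0.7). Of 12 ubiquitin-specific proteases UBP23 rose (0.91) and UBP18 fell (-0.69). Among 10 U-box ligases PUB22, a brake on immune signalling, rose from 5.56, 6.07 and 6.26 to 8.23, 7.89 and 8.54, while PUB25 (-1.73) and PUB43 (-1.0) fell. The count for this family includes PUB23 (0.55), whose call was lost without single arrays (0.41 without control replicate 3, adjusted p = 0.104). Of 32 serine carboxypeptidase-like genes 9 rose (28.1%) and 3 fell (9.38%), against 14.2% and 13.2% of all genes. They were led by scpl16 (2.44), SCPL45 (1.61) and scpl50 (1.43) on one side and scpl48 (-2.41) on the other. The counts include SCPL49 (0.69), scpl25 (0.58) and scpl33 (-0.58), whose calls were lost in 5, 3 and 2 fits without 1 array. Of 10 subtilases, which are secreted proteases, ATSBT5.2 rose (1.04) and SBT3.12 (-1.53), SBT3.5 (-1.18) and SBT3.3 (-0.95) fell. None of the 3 vacuolar processing enzymes passed the test, with values from -0.27 to 0.03.

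In 4 families of membrane traffic 13 of 50 genes fell (26.0%) and none rose, against 13.2% lower and 14.2% higher over all genes. The median control signal of the 50 genes was 6.12. Of all genes, 16.9% were lower in the quartile above the median signal and 23.6% in the top quartile, from 6.22 up. Of 16 PRA1 proteins, which bind small GTPases on endomembranes, 7 fell with a median of -0.47. PRA8 read 6.96, 7.61 and 7.42 in control and 5.36, 5.04 and 5.5 at 6 h, PRA1.B5 read 6.0, 6.94 and 6.31 and 4.49, 3.76 and 5.61, and PRA1.B1 differed by -1.08. The count of PRA1 calls fell to 4 without control replicate 3. Of 13 ESCRT genes, which sort membrane proteins for the vacuole, ELC (-1.14), VPS60.1 (-0.94) and VPS25 (-0.76) fell. Of 12 tetraspanins TET10 (-1.03), TET8 (-0.96) and TET6 were called lower, and TET6 moved from -1.15 to -0.62 (adjusted p = 0.0712) without control replicate 3. None of 9 exocyst genes, which tether vesicles at the plasma membrane, was called, with values from -0.51 to 0.25.

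Microtubule genes gave more rises than falls, and genes of mitosis and replication few calls. Of 6 tubulin genes 3 rose. TUB5 read 3.46, 3.46 and 3.19 in control and 5.64, 5.61 and 5.9 at 6 h, and TUB9 (1.37) and TUB7 (1.28) followed, while TUB6, TUA6 and TUB1 had 0.02, -0.15 and -0.37 and did not pass the test. IQD proteins, which bind calmodulin and many of which bind microtubules, rose in 7 of 17 cases. IQD22 went from 5.36, 5.41 and 5.89 to 8.27, 8.35 and 8.31, IQD31 from 5.27, 4.86 and 5.14 to 7.12, 6.98 and 7.2 and IQD19 by 1.69. In each fit without 1 array 7 of them rose. The 3 lower IQD calls, IQD18 (-0.82), IQD25 (-0.64) and IQD20 (-0.49), were all lost without 6 h replicate 1, with -0.67, -0.56 and -0.45 there. IQD25 stood at -0.41 without control replicate 2. Of 14 TRM proteins, which recruit a complex that orders cortical microtubules, TRM25 (1.49), TRM15 (0.85) and TRM21 (0.76) rose, and TRM20 (0.5) was called but lost its call in 4 fits without 1 array (0.42 at the lowest). Among 22 genes of mitosis and replication 1 rose and 2 fell. The histone chaperone ASF1B (0.78) was higher, and SIM, an inhibitor of cyclin-dependent kinases (-1.08), was lower. The histone HTB4 was called at -0.75 with an adjusted p of 0.0499 in limma, and the call was lost in 5 fits without 1 array, with -0.47 nearest to 0.

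Cell wall families held single members with large rises. Of 23 expansins, which loosen walls in growth, 4 rose and 1 fell. EXPA8 read 4.48, 4.37 and 4.59 in control and 6.22, 6.41 and 6.89 at 6 h, EXPA4 read 3.44, 3.41 and 3.75 and 4.89, 4.85 and 5.15, and EXPA9 rose by 1.19. EXLA2 was called at 0.73, a call lost in 3 fits without 1 array (0.6 at the lowest). EXLB1 fell by 1.66. The median expansin, at -0.06, lay near the median over all genes. CSLC5, a glucan synthase of the xyloglucan family, went from 3.91, 3.77 and 4.52 to 6.82, 7.15 and 6.69, and with ATCSLC08 (1.03), CSLC04 (1.01) and CSLA03 (0.64) made 4 rises in 9 cellulose synthase-like genes, against 1 fall in CSLD2 (-0.99). The call of CSLA03 was lost in 3 fits without 1 array (0.48 at the lowest). Of 10 XTH enzymes, which cut and join xyloglucan, XTH33 rose by 1.89 and XTH29 fell by 0.73. XTH19 was called at 0.84, a call lost without 6 h replicate 1 or 6 h replicate 2 (0.68 at the lowest). Of 19 endoglucanases GH9C2 (4.34, 3.63 and 4.52 in control and 6.48, 6.34 and 6.81 at 6 h) and GH9B7 (2.19) rose. In the TBL family, which acetylates wall polymers, 3 of 23 genes rose (13.0%, near the share over all genes) and 1 fell. They were led by TBL24 (1.52) and TBL37 (1.39) on one side and TBL38 (-1.17) on the other. One of 7 pectin methylesterases, ATPMEPCRB, rose (2.15).

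Across the enzyme families given next 12 of 122 genes rose (9.84%) and 29 fell (23.8%), against 14.2% and 13.2% of all genes. Of these falls 11 were cytochrome P450 genes, mostly of 1 subfamily, and the other families were less one-sided. Of 26 cytochrome P450 genes 11 fell and none rose, with a median of -0.62, and 10 to 13 fell in the fits without 1 array. All but CYP78A9 of the 11 belonged to the CYP71B subfamily, whose members are in part close copies that can share probes. CYP71B20 read 5.4, 5.28 and 5.16 in control and 2.67, 2.6 and 2.1 at 6 h, CYP71B22 read 3.85, 3.91 and 4.64 and 2.51, 2.73 and 2.76, and CYP71B6 read 8.6, 9.0 and 8.11 and 7.27, 7.18 and 7.18. Treated and control arrays did not overlap in any of them. Of 23 beta-glucosidases 6 fell and 4 rose. Besides BGLU46, BGLU45 went from 6.87, 7.54 and 7.3 to 3.89, 3.9 and 4.26 and BGLU31 fell by 2.74, whereas BGLU44 (1.54), BGLU42 (1.19) and BGLU25 (1.01) rose. Of 51 UDP-glycosyltransferases 6 rose (11.8%) and 7 fell (13.7%), near the shares over all genes. UGT76C2, which glucosylates cytokinins, was at 1.52 and UGT71B5 at -1.63. The 7 lower calls became 4 without control replicate 2 and 10 without control replicate 3. Of 15 glutathione transferases GSTU20 rose and GSTF3 (-2.42) and GSTU18 (-1.06) fell. Of 7 methionine sulfoxide reductases, which repair oxidised methionine, MSRB8 went from 4.72, 5.1 and 4.66 to 1.22, 1.84 and 2.27, MSRB9 (-1.26) and MSRB3 (-0.86) fell and MSRA5 rose (0.73).

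Transporters changed one by one. Of 14 SWEET sugar carriers 4 fell, with SWEET2 from 8.82, 9.32 and 10.10 to 5.38, 5.35 and 5.79 and SWEET16 from 5.1, 5.2 and 5.84 to 2.72, 2.86 and 3.5, both of the vacuole membrane. SWEET13 fell by 1.06 and SWEET10 rose by 1.59. SWEET7 was called at -0.55, a call lost in 4 fits without 1 array (-0.41 nearest to 0). Falls made up 28.6% of the SWEET genes and the rise 7.14%, against 13.2% and 14.2% of all genes. Of 13 transporters of the NRT1/PTR family 4 rose and 3 fell. AT2G26690, given as NPF6.2 in the reference synonyms, went from 11.28, 11.29 and 11.63 to 7.25, 7.34 and 7.68, and AT3G21670, given as NPF6.4, from 5.95, 5.78 and 5.91 to 2.93, 2.89 and 3.09. AT1G72120 (-1.49) was the other fall, and AT1G68570 (1.47), the nitrate exporter NAXT1 (1.41) and the glucosinolate carriers GTR1 (1.16) and GTR2 (0.82) rose. NRT2.5, of another nitrate transporter family, was the one measured member of the list of nitrogen uptake genes. Glutamate receptor-like channels rose in 3 of 10 cases, led by GLR3.5 (5.4, 5.39 and 5.38 in control and 7.45, 7.83 and 7.66 at 6 h) and GLR2.7 (0.88). The third, GLR2.8 (0.6), lost its call in 4 fits without 1 array (0.42 at the lowest). CHX16 (1.13) was the one call in 9 cation exchangers.

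Hormone genes split within families. Of 6 GH3 enzymes, which conjugate auxin and other acids, GH3.3 rose while GH3.17, WES1 (10.99, 11.48 and 11.35 in control and 8.35, 8.44 and 8.52 at 6 h) and GH3.1 (-0.67) fell. IAA29, a repressor of auxin response, went from 2.39, 2.25 and 2.7 to 5.83, 6.03 and 5.85, and the other 7 measured AUX/IAA genes had values from -0.49 to 0.13 and did not pass the test. HAT2, an auxin-induced homeodomain factor, rose by 2.03. The gibberellin receptors GID1A (0.91) and GID1B (0.77) rose and GID1C had 0.27 (not past the test). None of 8 cytokinin response regulators was called. Of 7 genes known from cold and abscisic acid 4 rose and 1 fell. LTI30, a dehydrin, went from 1.65, 1.94 and 2.33 to 5.05, 5.3 and 5.26 and COR15A, a plastid protein of cold acclimation, from 2.76, 3.27 and 4.52 to 6.41, 5.58 and 6.25. COR27 was called at 0.85, a call lost without control replicate 1 or 6 h replicate 1 (0.69 at the lowest). COR47 fell by 0.75, and KIN1, a near copy of KIN2, had 0.03 (not past the test). EIN3, the main factor of ethylene response, fell from 10.63, 10.58 and 10.66 to 9.89, 9.8 and 9.85. HRA1 (AT3G10040), a factor that dampens the response to low oxygen, went from 3.0, 2.95 and 3.38 to 5.94, 6.21 and 5.57.

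Among transcription factors WRKY genes rose in 5 of 7 cases, the same number as in each fit without 1 array. WRKY29 read 7.27, 7.7 and 7.66 in control and 9.41, 9.37 and 9.5 at 6 h, WRKY47 read 9.22, 8.95 and 9.84 and 10.76, 10.74 and 10.71, and WRKY22 rose by 1.07. WRKY29 and WRKY22 act in early immune signalling. WRKY41 (0.92) and WRKY20 (0.78) rose, and WRKY42 (0.24) and WRKY6 did not pass the test. Of 17 bZIP factors 3 rose and 3 fell, with bZIP23 (1.13), a regulator of zinc supply, and BZIP34 (0.94) higher and BZIP24 (-1.83) and the stress sensor BZIP28 (-0.93) lower. bZIP58 fell by 2.21 but by 1.29 without control replicate 3, and BZIP61 rose by 1.33 but by 0.89 without control replicate 2. Of 11 factors of leaf polarity and margin growth TCP1 and NGA2 (0.9) rose and TCP15 (-1.14) and PHV (-1.05) fell. Of 64 AGAMOUS-like factors, most of them at low signal, 3 rose (4.69%) and 5 fell (7.81%), and that count of 8 fell to 5 without 6 h replicate 1.

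Lists of textbook response genes were thinly covered, and several had a single member. Of 556 members 102 were measured, and the 89 whose list name the RefSeq gene table also gives were used. The other 13 were left out of every count of list members and none was a cell type marker. Of these, 5 were higher and 5 lower at 6 h. The higher ones were AT5G10040 (2.34), AT4G17260 (2.12) and AT3G27220 (1.99) of the low oxygen list, AT2G31790 (1.65) of the glucosinolate list and AT1G53540 (1.11) of the heat shock list. The lower ones were AT5G37670 (-2.66) of the heat shock list, the amino acid breakdown members AT5G38710 (-1.92) and AT2G26800 (-1.27), the carbon metabolism member AT1G80380 (-1.2) and the autophagy member AT3G61960 (-0.46, adjusted p = 0.0402). GI, of the circadian clock, differed by -0.33 and PDF1.2, of the jasmonate response, by 0.22, neither past the test. The oxidative stress genes SAPX (-0.07), STZ (-0.19) and GSTU25 (-0.13) did not pass it either. DFR of anthocyanin synthesis (0.67), BIP1, a chaperone of the endoplasmic reticulum (0.55), and AT5G48570, given as FKBP65 in the reference synonyms (-0.78), were called. The calls were lost in 1, 5 and 3 fits without 1 array, where the values nearest to 0 were 0.56 for DFR, 0.46 for BIP1 and -0.66 for AT5G48570. BIK1, a kinase of immune receptors, had -0.43 (not past the test), whereas the other 4 measured genes of the immunity list, WRKY22, WRKY29, PUB22 and PUB23, were the calls given above.

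The families and lists together held 954 distinct genes, of which 176 were higher (18.4%) and 129 lower (13.5%), against 14.2% and 13.2% of all genes. Of these 305 calls 242 were made in all 6 fits without 1 array. Members were chosen by their names with results of these data known, so that the totals are a description and no test was made of them.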

How the data were processed

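Total RNA of pooled detached leaves was hybridised to Affymetrix arrays, 3 each for control, BrvC 6 h and BrvC 48 h. The deposited table of values by entry and sample was made by the authors with oligo, RMA and limma, per the submitters' processing notes, which give no versions. Its values are log2 signals, deposited as normalized by the authors with RMA, which corrects background, quantile-normalizes and summarizes probes. The array annotation and genome build are not given in the sources used here. Quantile normalization can hide a shift common to most genes. The deposited arrays were not alike over all entries, with medians of 3.8 to 3.93 in control and 4.17 to 4.25 at 6 h, and were closer over the genes tested, with 3.8 to 3.87. No scanner files, detection calls or counts were used, so that the depth behind a value is unknown and the number of arrays limits the precision. Every sample column was used, and 0 other columns of values were left out.

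Entries were named through the platform's gene annotation, and the one with the highest mean over 9 arrays was kept for each of 16550 genes (146 had several entries). Of these, 16411 were found in the RefSeq gene table, which gave symbols and synonyms, and 139 were not. One linear model was fitted to the 9 arrays with limma 3.58.1 in R 4.3.3, with moderated variances and Benjamini-Hochberg adjustment over all genes, two-sided, at 0.05. The fit was also run on simulated data with known changes in few genes and independent spread. The real data gave far more calls, so that run checks the computation alone. No filter on low values was used. The labels call the replicates biological, and the p-values measure the spread between these samples. Control and 6 h samples share replicate numbers, but the correlations of their deviations from the group means were 0.03, -0.03 and 0.01 for numbers 1, 2 and 3, so the fit had no block.

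The genes named were the 15 largest rises and the 15 largest falls among genes past the test whose groups did not overlap, and up to 3 members per direction in each family or list with at least 3 calls. Further members were added, after their values were seen, to account for the rest of each group. Families were formed by name patterns in the gene table (64 families) and 37 lists by locus. The members and lists were chosen with earlier results of these data known. Alternatives were other samples, scalings, filters, variance models, entries, thresholds, a replicate block and leaving out single arrays.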

Additional observations from a re-analysis of the deposited data

Results flagged for a closer look

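Each of the 30 genes with the largest change at 6 h had a different level at 48 h, by the contrast of BrvC 48 h minus BrvC 6 h in the same limma fit. The difference itself uses no control array, while its error comes from the spread within all 3 groups. The genes were picked by their 6 h values, which also enter this contrast. A move back from the 6 h level was thus favoured in advance, and the values are a description. For the rises that difference was -4.59 for AT4G20970, -4.89 for PRN, -3.64 for AT1G66940, -4.08 for AT3G50340, -4.3 for AT4G30650 and -2.97 for AT4G30020. It was -4.1 for AT1G10585, -2.81 for AT1G23110, -2.42 for NRT2.5, -4.02 for KIN2, -1.72 for AT2G36970, -2.09 for TCP1 and -3.89 for AT2G20835. AT3G29970 (2.36) and GH3.3 (0.84) were the rises that stood higher at 48 h than at 6 h. GH3.3 passed that test narrowly (adjusted p = 0.0497 in limma), with an SD of 0.72 in control, 0.09 at 6 h and 0.13 at 48 h.

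All 15 falls stood higher at 48 h than at 6 h. OSM34 differed by 5.58, AT1G62760 by 4.86, BGLU46 by 3.86 and AT1G61750 by 3.31. AT3G51540 (3.04), AT3G32980 (3.01), AT3G19390 (2.97), AT1G68620 (2.7), AT1G73610 (2.56), AT2G32150 (2.41) and AT4G33420 (2.4) followed. The smallest differences were those of AT1G73750 (2.39), AT5G50940 (2.24), AT3G14200 (2.0) and AT2G41250 (1.41). Of the 192 family and list genes named by the rule, 134 differed between 6 h and 48 h in the same contrast. These too were picked by their 6 h change.

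Among the 20927 entries that the gene table does not list, 6220 differed between BrvC 6 h and control (29.7%), and 71.5% of those calls were higher, against 51.9% for the genes tested. The median of all array entries was 3.8 to 3.93 in control and 4.17 to 4.25 at 6 h, while it was 3.8 to 3.87 for the genes tested on the same arrays. What these entries measure is not given in the sources used here.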

How the results depend on the processing

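The count of 4531 genes changed at 6 h stayed between 4306 and 4861 with the 6 arrays of control and 6 h alone, renewed quantile normalization, centring on array medians, a filter on low signals, a variance trend, array weights, another entry per gene or the replicate block. It was 3081 at an adjusted p under 0.01, 2252 when a 2-fold difference was also asked, and 10484 over all entries of the table, where 64.0% of calls were higher. Leaving out single arrays gave 3575 to 4649 changed genes, 260 to 307 changed list and family members against 305, and 198 to 211 called named genes against 218. The replicate numbers were not taken as pairs, and with the replicate block 4306 genes, 296 list and family members and 210 named genes were called. Centring turned the split of calls from 51.9% to 48.6% higher. The named genes were picked for passing the test on these same arrays, so an unchanged sign was largely fixed in advance. None of 3050 values of named genes under the alternatives changed sign and 113 missed the threshold, from 25 genes, most of them under left-out arrays. The cause was not tested. Counts moved by over 1.5 times for lower UDP-glycosyltransferases (7 to 4 without control replicate 2), splicing genes (3 to 5 with the 6 arrays alone), iron-regulating bHLH factors (3 to 0 without some arrays), UBP proteases (2 to 4 after quantile normalization) and plant defensins (3 to 1 without some arrays). Of the 16550 genes 6212 had an unadjusted p under 0.05, and in the lowest quartile of signal few calls were made.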

Other observations

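Some genes that changed at 6 h stood side by side on a chromosome. Of 10249 pairs of neighbouring measured genes 871 had both members called, 493 in the same direction (56.6%) and 378 in opposite directions. The pairs with both members called were 8.5% of all pairs. Calls placed independently, with 27.4% of genes called, would give 7.5% of pairs with both called and 50.1% of those in one direction, and the differences from these shares were not tested. There were 41 runs of at least 3 neighbours called in one direction, 16 higher and 25 lower, and 21 of them were kept in all 6 fits without 1 array. The run of 4 from AT1G51830 to AT1G51860 had differences of 1.17, 2.21, 2.64 and 0.74. AT1G51850 read 5.86, 5.68 and 6.28 in control and 8.64, 8.26 and 8.85 at 6 h. AT1G66940, one of the largest rises, had AT1G66920 (0.87) and AT1G66930 (0.88) beside it. AT1G61360 (1.28), AT1G61370 (1.14), SD1-29 (2.18), a receptor-like kinase, and AT1G61390 (1.45) formed another higher run. Among lower runs AT1G63570, AT1G63580 and AT1G63590 had -2.56, -1.62 and -3.05. BGLU27 (-2.11) and BGLU16 (-2.06) lay beside AT3G60110 (-1.11), and SBT3.5 and SBT3.3 beside AT1G32950 (-1.13). AT5G64090, AT5G64100 and AT5G64110 had -1.3, -3.5 and -1.77 at 6 h, and at 48 h -0.83, 1.54 and 2.52 against the same controls. Whether neighbours share probes was not tested.

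Genes of secreted peptides were seldom called, with 4 higher and 8 lower of 106, at a median control signal of 2.05. CLE26, a small signalling peptide, rose from 2.66, 3.14 and 2.85 to 4.75, 5.12 and 5.11, and CLE44, known from vascular growth, fell from 6.85, 6.43 and 7.66 to 5.0, 4.88 and 4.85. Their arrays did not overlap. CLE14 was called at -0.68, a call lost in 5 fits without 1 array (-0.49 nearest to 0). LCR69 (1.85) and LCR54 (1.29) rose and LCR37 (-1.97) fell among 63 LCR genes, where 8 were called without control replicate 3. RALFL32 (-0.94) and RALFL18 (-0.72) fell among 18 RALF-like genes, and RALFL15 was called at 0.69, a call lost in 4 fits without 1 array (0.52 at the lowest). Of 8 defensins 3 were called lower, with PDF1.4 (-1.52) the lowest.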
